A study of Mus musculus with 2 samples.

Results

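The Rab GTPases are small GTP-binding proteins, and 58 gene symbols of this family were listed among the 32531 in the counts of mouse dorsal striatum analysed here. Members were all symbols made of Rab, a number and at most a letter from a to d. Of the 58 genes, 45 had at least 50 reads over both libraries and are called measured below, 8 had fewer, and 5 had no read. Total RNA was sequenced from the input, the RNA of homogenised dorsal striatum before ribosome purification, as 1 library from mice whose cocaine intake escalated and 1 from mice whose intake did not. Both groups had long-access intravenous self-administration of cocaine, and both carried the Drd1-TRAP transgene of line CP73. That BAC transgene uses Drd1 regulatory sequence to express EGFP fused to the ribosomal protein Rpl10a, so it is meant for purifying ribosomes from Drd1 neurons, a step not used for these libraries. The line came from an FVB/N-Swiss Webster background and had been crossed to C57BL/6 for at least 9 generations. Age, sex, the number of animals behind each library and the strand setting of the counting were not given in the sources used here, and no library of mice without cocaine was analysed.

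Rab proteins switch between a GDP-bound form held in the cytosol and a GTP-bound form on a membrane, where they recruit effectors that move, tether and fuse vesicles. Guanine nucleotide exchange factors (GEFs) load GTP, GTPase-activating proteins (GAPs) end the active state, and GDP dissociation inhibitors (GDIs) extract the protein from the membrane. In neurons Rab3 proteins sit on synaptic vesicles, Rab5 proteins on early endosomes, Rab4 and Rab11 proteins on recycling endosomes and Rab7 on late endosomes, while Rab1, Rab2 and Rab6 proteins serve the ER and Golgi. The role groups used here follow each protein's best known site, although many Rabs act at more than 1.

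The promoters of Rab3a and Rab3b, paralogues that were higher in the escalating library, and of Rab33a, a higher Golgi Rab, are printed. Beside them stands that of Rab31, the measured member with the lowest ratio, so that start regions of genes with opposite ratios can be compared. The sequences are from RefSeq on GRCm38.p6, run 5′ to 3′ on the gene's strand and span 300 bases around the start, and capitals mark the GC box (GGGCGG, either strand), a common binding site of Sp1-type factors.
Rab3a: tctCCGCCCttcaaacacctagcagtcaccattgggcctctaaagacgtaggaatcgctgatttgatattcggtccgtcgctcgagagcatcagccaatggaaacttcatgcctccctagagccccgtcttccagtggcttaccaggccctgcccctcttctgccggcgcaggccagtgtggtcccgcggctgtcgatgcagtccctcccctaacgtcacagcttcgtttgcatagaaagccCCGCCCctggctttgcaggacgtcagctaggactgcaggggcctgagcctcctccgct
Rab3b: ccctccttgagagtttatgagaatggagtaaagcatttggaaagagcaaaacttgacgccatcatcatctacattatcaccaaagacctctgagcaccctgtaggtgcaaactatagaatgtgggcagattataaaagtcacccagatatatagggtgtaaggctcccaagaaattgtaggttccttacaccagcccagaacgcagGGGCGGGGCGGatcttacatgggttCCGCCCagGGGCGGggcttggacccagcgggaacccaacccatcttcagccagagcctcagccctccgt
Rab33a: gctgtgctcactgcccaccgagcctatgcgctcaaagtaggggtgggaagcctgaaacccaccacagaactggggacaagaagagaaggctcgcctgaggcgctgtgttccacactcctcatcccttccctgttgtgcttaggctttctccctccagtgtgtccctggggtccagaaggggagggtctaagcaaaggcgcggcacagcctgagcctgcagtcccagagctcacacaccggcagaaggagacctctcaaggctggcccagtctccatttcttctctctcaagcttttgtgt
Rab31: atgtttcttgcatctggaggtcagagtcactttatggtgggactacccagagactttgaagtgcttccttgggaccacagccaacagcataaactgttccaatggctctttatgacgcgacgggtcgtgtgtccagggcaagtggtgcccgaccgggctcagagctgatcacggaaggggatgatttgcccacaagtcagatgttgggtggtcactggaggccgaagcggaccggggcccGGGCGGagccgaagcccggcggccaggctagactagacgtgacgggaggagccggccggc
These windows lie at chr8:70754453-70754752 on the plus strand for the upstream start of Rab3a, chr4:108878820-108879119 on the plus strand for Rab3b, chrX:48519035-48519334 on the plus strand for Rab33a and chr17:65772703-65773002 on the minus strand for Rab31. There were 2 GC boxes in the Rab3a window, 4 in that of Rab3b, of which a pair overlap, 1 in that of Rab31 and 0 in that of Rab33a. The table held 60 promoters for 48 of the 58 Rab genes, and 41 of them (68.3%) had a GC box, against 35.7% of all 32851 promoters of the same length. Among the members whose ratio passed the threshold given below, 3 of 6 promoters of higher genes and 3 of 4 of lower genes held it. Promoters of the same gene were counted apart, and Rab26, a higher gene, had no promoter here. The cAMP response element (TGACGTCA, either strand) was in 2 of 60 Rab promoters and 1.79% of all promoters, and the E-box (CACGTG, which reads the same on both strands) in 6 of 60 and 7.15%; neither contains the GC box letters. A match is a description of these letters and not a binding site.

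The question for the Rab family is whether its transcripts stood at other levels in striatum of mice with escalating cocaine intake than in striatum of mice whose intake did not escalate. Counts were expressed as CPM with TMM-scaled library sizes, ratios are escalating over nonescalating, and each ratio has a 95% counting interval (exact, Clopper-Pearson). With 1 library per group there is no replicate check and no p-value, each difference is one between these libraries and not between the conditions, and the interval covers counting error only. A gene was called higher or lower at 1.5-fold with an interval that excluded 1. In bulk tissue, fewer cells of a type and less RNA per cell cannot be told apart.

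Among 45 measured Rab genes, 5 were called higher in the escalating library and 3 lower. Over all 12213 measured genes the same rule called 9.33% higher and 17.1% lower, beside 11.1% and 6.67% of Rab genes, so the share higher was near the background and the share lower was below it. The higher members were Rab3a, Rab3b and Rab26 of the secretory group and Rab33a and Rab34 of the Golgi group, and the lower ones were Rab31, Rab27a and Rab33b. The median log2 ratio of Rab genes was 0.07, against 0.02 for all measured genes, and 27 of 45 lay above 0.02. The middle of the family was narrower than that of all genes, with quartiles of -0.17 and 0.39 against -0.40 and 0.32. Scaling to total assigned reads raises all log2 ratios by 0.36. The share of all calls that were higher was then 77.0%, against 35.3% with TMM; of Rab genes 15 were called higher and 2 lower, beside 31.5% and 9.41% of all genes, and 9 members changed sign.

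The depth and cell content of the libraries set limits on these values. Genes received 9548358 reads in the escalating library and 9376097 in the nonescalating one, and reads falling in more than 1 gene were 8.06% and 18.9% of all reads. Reads falling in no counted feature were 28.6% in the escalating library and 18.1% in the nonescalating one. A count of 0 allows up to 3 reads, or 0.277 CPM in the escalating library and 0.363 CPM in the nonescalating one. Called lower in the escalating library were all 20 microglia, 17 of 18 astrocyte, 12 of 16 oligodendrocyte and 11 of 13 endothelial markers measured. Their median log2 ratios were -5.71, -1.61, -0.92 and -1.08. With total reads 20, 15, 7 and 7 of these markers were called lower. Of 9 oligodendrocyte precursor markers 3 were called lower and 1 higher (2 and 1 with total reads), with a median of -0.32. The summed level of the microglia markers came to 44.1 CPM in the escalating library, against 2026 CPM in the nonescalating one, and Gpr34 and Trem2 had no read in the escalating library. Of 22 pan-neuronal markers 3 were called higher and 0 lower (14 and 0 with total reads), with a median of 0.30. Of 20 striatal projection neuron markers 1 was called higher and 3 lower (6 and 1 with total reads). Their median was -0.06 (0.30 with total reads), in a range from -1.03 to 0.88. Beside the counts of all these lists stand 9.33% higher and 17.1% lower of all measured genes. With total reads those shares were 31.5% and 9.41%. The part of cell content in the Rab ratios was not tested.

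Per length of exon, the 3 most abundant members were the same in both libraries. Rab6b, a Golgi Rab enriched in neurons, was at 305 RPKM (CPM per kb of exon) in the escalating library and 290 RPKM in the nonescalating library, and it alone held 29.8% and 30.3% of all Rab reads. Rab2a, which acts between ER and Golgi, followed with 127 and 133 RPKM, and Rab7, the late endosomal Rab that directs fusion with lysosomes, with 109 and 96 RPKM. Rab3a, the main Rab of synaptic vesicles, stood at 92.8 RPKM in the escalating library, above Rab6a at 86.3 RPKM. In the nonescalating library Rab3a was at 56.3 RPKM, below Rab6a at 87.1 and Rab1 at 60.1 RPKM. The remaining measured members ranged down to 1.24 RPKM, the level of Rab27a in the escalating library and of Rab8a in the nonescalating one. Lengths are the merged exons of GENCODE M21, which may differ from the annotation used for counting.

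**Figure D1:**
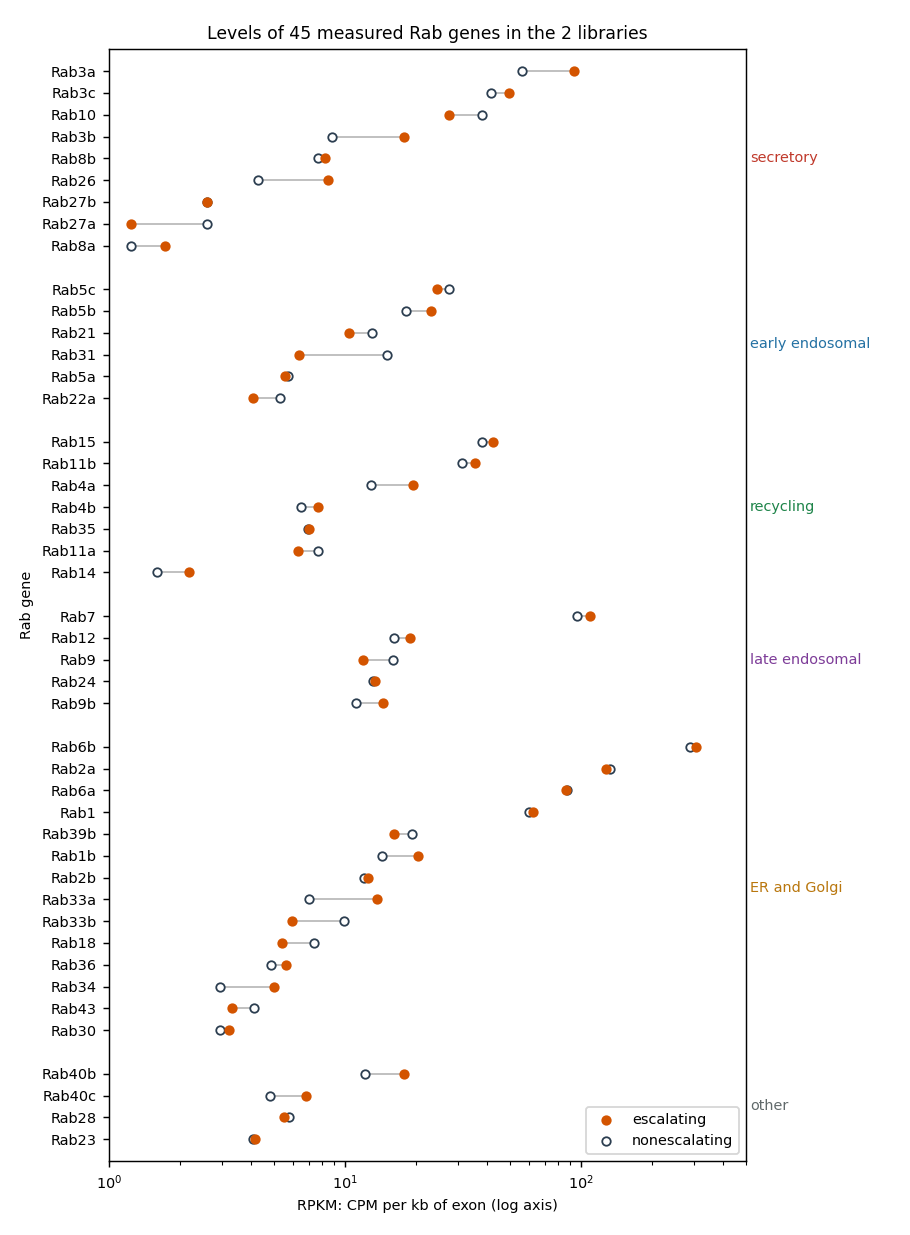
Level of each of the 45 measured Rab genes in RPKM (CPM per kb of exon, log axis), with filled points for the escalating and open points for the nonescalating library, 1 library each, grouped by role. Most pairs of points nearly coincide; Rab3a, Rab3b, Rab26, Rab33a and Rab34 lie to the right in the escalating library and Rab31, Rab27a and Rab33b to the left.

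In the secretory group, 3 of 9 measured members were higher (33.3%) and 1 lower (11.1%), beside 9.33% and 17.1% of all genes. With total reads Rab3c and Rab8a were also called higher, beside 31.5% of all genes. The group median was 0.23 above that of all genes on the log2 scale. Rab3b, a vesicle Rab found in a subset of neurons and in endocrine cells (chromosome 4, 108879063 to 108943324, mm10), had 677 reads in the escalating library and 257 in the nonescalating one. That is 62.6 and 31.1 CPM, a 2.01-fold higher level in the escalating library (1.74 to 2.33). Rab3a (chromosome 8, 70754679 to 70758677) had 2235 and 1037 reads, or 207 and 125 CPM, a 1.65-fold higher level (1.53 to 1.78). Rab26, which has been placed on synaptic vesicles and linked to their autophagy (chromosome 17, 24527241 to 24534210), stood at 24.2 and 12.2 CPM, 1.98-fold higher (1.57 to 2.52). Another annotated gene shares 10.3% of the exon length of Rab26, 9.00% of that of Rab3b and 1.30% of that of Rab3a. All 3 therefore drop out when genes that share exons are left out.

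Other secretory members differed by less or went the other way. Rab3c, the Rab3 paralogue with the most reads, had 595 and 500 CPM, a ratio of 1.19 (1.15 to 1.24) that was not called. Rab3d, known from exocrine and endocrine granules, had 6 and 29 reads, too few to be measured. Rab27a, a docking Rab of lysosome-related and secretory granules (chromosome 9, 73044854 to 73097629), had 52 reads in the escalating library, against 83 in the nonescalating one, and was 2.09-fold lower (1.46 to 3.01). Its paralogue Rab27b was at 27.8 and 27.7 CPM, a ratio of 1.01 (0.844 to 1.2). Rab10, an exocytic Rab and a substrate of the kinase LRRK2, had 96.7 and 134 CPM and a ratio of 0.722 (0.663 to 0.786), short of the threshold although its interval excluded 1. Rab8b had a ratio of 1.07 (0.922 to 1.25) and Rab8a, with 87 and 48 reads, one of 1.39 (0.963 to 2.01). Rab37, known from mast cell granules, had 32 and 4 reads, and Rab13, a Rab of tight junction traffic, had 21 and 19.

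**Figure D2:**
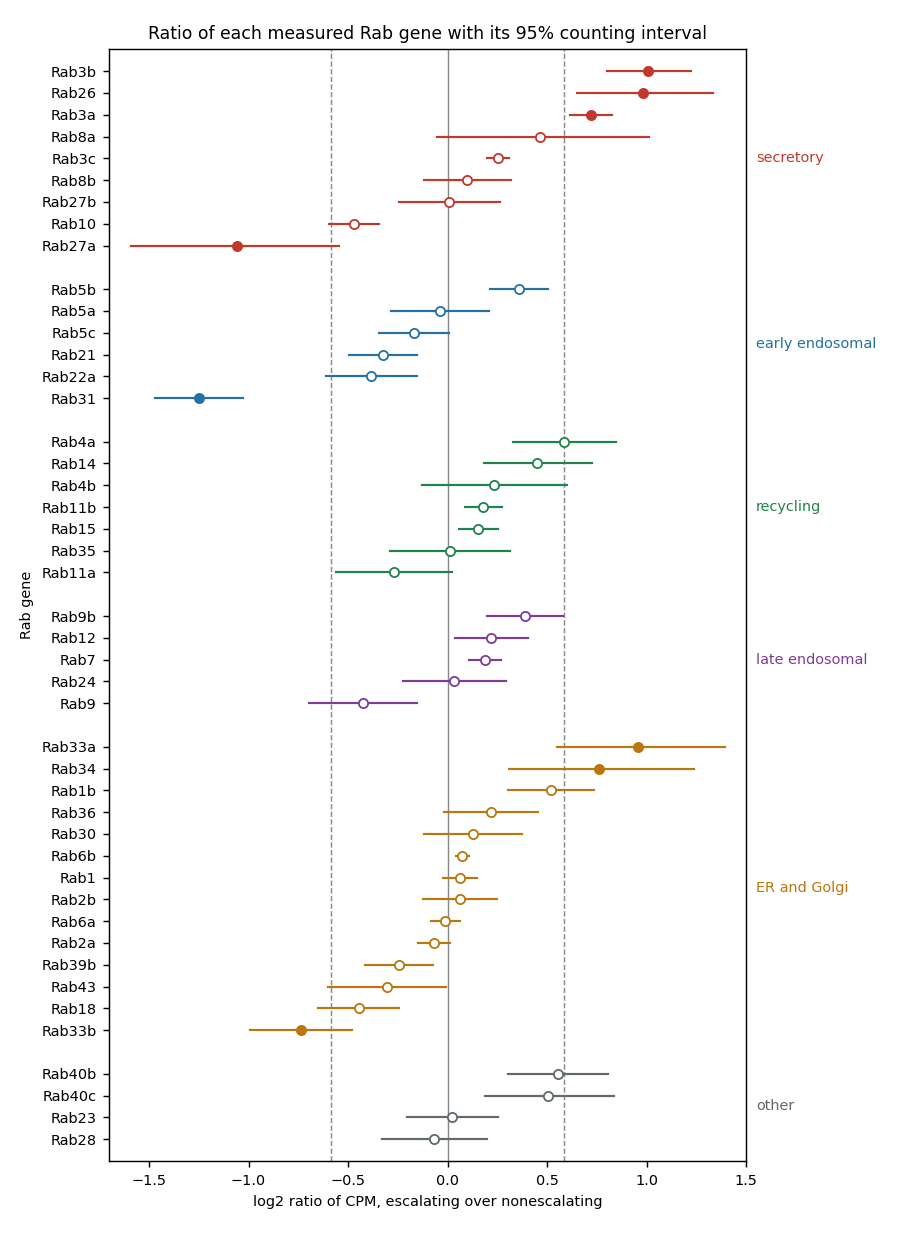
Log2 ratio of CPM, escalating over nonescalating, of each of the 45 measured Rab genes, with bars for the 95% counting interval, filled points for called genes and dashed lines at 1.5-fold. Secretory members spread from -1.06 to 1.01, while recycling and late endosomal members stay between -0.43 and 0.58.

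The early endosomal group had the lowest median, 0.27 below that of all genes on the log2 scale, and 1 of its 6 measured members lay above the median of all genes. Rab31, which carries cargo from the trans-Golgi network to endosomes (chromosome 17, 65651729 to 65772752), had 262 reads in the escalating library, against 476 in the nonescalating one. Its level was 24.2 and 57.5 CPM, 2.38-fold lower in the escalating library (2.04 to 2.77), the lowest ratio of any measured Rab gene. Rab21, a Rab of integrin endocytosis, had a ratio of 0.798 (0.708 to 0.900), and Rab22a, the closest relative of Rab31 in this group, one of 0.767 (0.654 to 0.899). Neither was called. The Rab5 genes encode the organisers of early endosome fusion. Rab5b had 97.4 and 76.0 CPM, a ratio of 1.28 (1.16 to 1.42). Rab5c, the most abundant of this group per length, had 580 and 499 reads, or 53.6 and 60.3 CPM (ratio 0.889, 0.787 to 1.004). Rab5a had 29.3 and 30.1 CPM (ratio 0.973, 0.822 to 1.15). The intervals of Rab5c and Rab5a held 1. With total reads the log2 ratios of Rab5a, Rab5b and Rab5c were 0.32, 0.72 and 0.19. In this group Rab5b was then called higher and Rab31 lower, beside 31.5% and 9.41% of all genes. Rab17, an epithelial Rab, and Rab20, known from macrophage phagosomes, had no read in either library.

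With TMM scaling no recycling Rab was called among 7 measured, beside 9.33% higher and 17.1% lower of all genes. With total reads Rab4a, Rab4b and Rab14 were called higher, beside 31.5% of all genes. With upper-quartile scaling Rab4a was called higher, beside 13.7% of all genes. Rab4a, which returns receptors quickly to the surface, came nearest, with 367 reads in the escalating library, 187 in the nonescalating one and a log2 ratio of 0.58, just under the threshold; its CPM ratio was 1.5 (1.25 to 1.80). Rab14 had a ratio of 1.37 (1.13 to 1.65), on 320 and 179 reads. Rab11b, the more abundant of the genes for the slow recycling Rab, was at 217 and 192 CPM (ratio 1.13, 1.06 to 1.21), and Rab11a at 18.9 and 22.8 CPM (ratio 0.829, 0.677 to 1.02). Rab15, the most abundant recycling member per length, had 2110 and 1450 reads, or 195 and 175 CPM (ratio 1.11, 1.04 to 1.19), and Rab35 19.9 and 19.7 CPM. The median of the group was 0.16 above that of all genes. Rab25, the epithelial relative of Rab11, had no read.

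Late endosomal members also gave no call among 5 measured with TMM scaling, beside 9.33% higher and 17.1% lower of all genes. With total reads Rab9b was called higher, beside 31.5% of all genes. Rab7 stood at 285 CPM in the escalating library, against 251 CPM in the nonescalating one, a ratio of 1.14 (1.08 to 1.2) on 3089 and 2074 reads. The pair that returns cargo from late endosomes to the Golgi split: Rab9b had 57.8 and 44.1 CPM (ratio 1.31, 1.15 to 1.49) and Rab9 20.8 and 27.9 CPM (ratio 0.745, 0.617 to 0.899). Rab12, which sends the transferrin receptor to lysosomes, had a ratio of 1.16 (1.02 to 1.32), and Rab24, linked to autophagy, one of 1.02 (0.856 to 1.23). Rab29, a partner of LRRK2, had 5 and 13 reads, Rab32 of lysosome-related organelles had 15 and 17, and Rab38, its melanosome relative, had none.

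In the ER and Golgi group 2 of 14 measured members were higher (14.3%) and 1 lower (7.14%), beside 9.33% and 17.1% of all genes. With total reads Rab1b was also called higher, beside 31.5% of all genes. Rab33a, reported on vesicles that feed axon growth (chromosome X, 48519285 to 48530232), had 171 reads in the escalating library and 67 in the nonescalating one, or 15.8 and 8.10 CPM, and was 1.95-fold higher (1.46 to 2.63). Its paralogue Rab33b, a Golgi Rab that binds the autophagy protein Atg16l1 (chromosome 3, 51483920 to 51496232), went the other way. It had 227 and 289 reads, or 21.0 and 34.9 CPM, and was 1.67-fold lower in the escalating library (1.39 to 1.99), a call that was lost with total reads. Rab34, which takes part in lysosome positioning and cilium formation (chromosome 11, 78188430 to 78192193), had 129 and 58 reads and was 1.70-fold higher (1.24 to 2.36). The abundant members hardly differed: Rab6b had 16607 and 12065 reads, or 1535 and 1458 CPM, a ratio of 1.05 (1.03 to 1.08), and ratios were 0.991 for Rab6a, 0.954 for Rab2a and 1.04 for Rab1. Rab1b, at 46.4 and 32.4 CPM, had a ratio of 1.43 (1.23 to 1.67), and Rab18, of the ER and lipid droplets, one of 0.733 (0.638 to 0.843). Rab2b, Rab30, Rab36, Rab39b and Rab43 lay between 0.810 and 1.16. Rab39 had 1 and 15 reads and Rab19 had 2 and 4. Counts of Rab43, Rab2b, Rab4b and Rab24 are uncertain, since from 62.4% to 75.4% of their exon length is shared with another annotated gene; Rab33b shares 18.7%.

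Of the Rabs outside these groups, Rab40b and Rab40c, which carry a domain that recruits a ubiquitin ligase, had ratios of 1.47 (1.24 to 1.75, on 386 and 201 reads) and 1.42 (1.14 to 1.79, on 229 and 123 reads). Rab23, a regulator of Hedgehog signalling at the cilium, was at 34.4 and 33.8 CPM, and Rab28, another ciliary Rab, at 25 and 26.1 CPM. Rab42 had 14 and 4 reads, and Rab44 had none.

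Pairs of related genes within a library do not depend on the scaling. In 11 of 16 pairs the interval of the change in their reads ratio excluded 1, and 5 of these were at least 1.5-fold. No share for pairs of other genes was computed. Over all measured genes, the single-gene interval with TMM lay above 1 for 27.2% and below 1 for 29.4%. That is another measure than the ratio of a pair and gives no background for the pairs. Rab33a had 0.753 reads per read of Rab33b in the escalating library and 0.232 in the nonescalating one, a 3.24-fold change (2.30 to 4.60) that was the largest of the 16. The ratio of Rab27b to Rab27a was 5.79 and 2.76, a 2.10-fold change (1.40 to 3.16). For Rab22a over Rab31 it was 1.21 and 0.662, a 1.82-fold change (1.46 to 2.28), and for Rab9b over Rab9 2.78 and 1.58 (1.76-fold, 1.40 to 2.21). Within the Rab3 genes, the ratio of Rab3b to Rab3c was 1.69-fold higher (1.45 to 1.97) and that of Rab3a to Rab3c 1.38-fold higher (1.27 to 1.51). Rab6b over Rab6a hardly differed, at 4.77 and 4.49 reads (1.06-fold, 1.0 to 1.12). The pairs were picked as close relatives after the counts were seen, and those that share a gene are not independent.

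**Figure D3:**
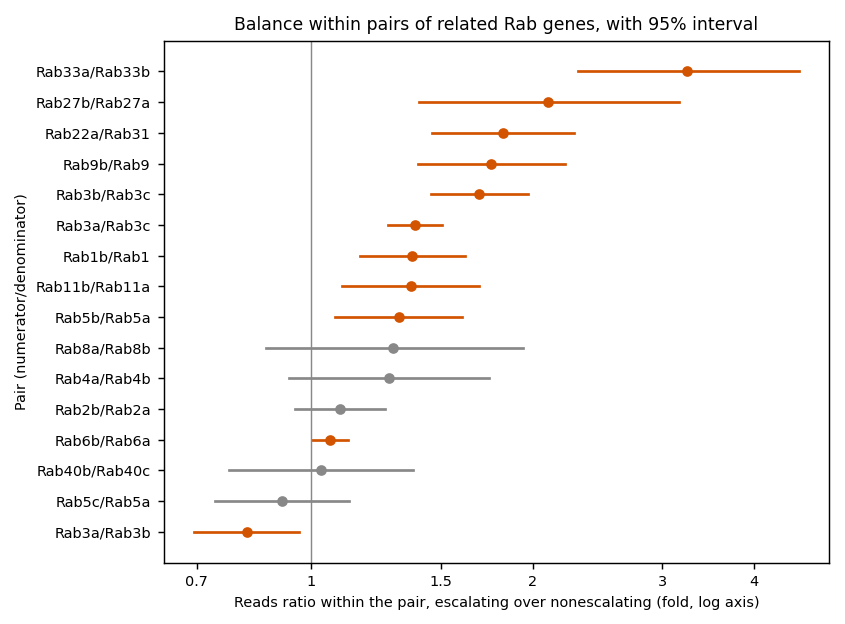
Change in the reads ratio within 16 pairs of related Rab genes, escalating over nonescalating (fold, log axis), with bars for the exact 95% interval; orange marks intervals that exclude 1 and grey those that do not. Rab33a over Rab33b stands highest at 3.24-fold and Rab3a over Rab3b lowest at 0.818-fold.

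The regulators and effectors of Rabs were compared from 8 lists with 163 measured genes, of which 9 were called higher (5.52%) and 16 lower (9.82%), both below the 9.33% and 17.1% of all measured genes. With total reads 61 were higher and 9 lower, beside 31.5% and 9.41% of all genes. Their median log2 ratio was 0.08 above that of all genes. Among 34 GEFs 2 were higher (5.88%) and 5 lower (14.7%), also below the shares of all genes. Rab3il1, a GEF of Rab8, had 15 reads in the escalating library, against 49 in the nonescalating one, and was 4.27-fold lower (2.36 to 8.20). Rin3 and Rin2, exchange factors of Rab5, were lower by 2.78-fold (1.49 to 5.39) and by 2.52-fold (1.86 to 3.44). Hps1, part of the GEF of Rab32 and Rab38, was 1.89-fold higher (1.15 to 3.22). Beside the ratios of Rab3il1, Rin3 and Rin2 stood microglia and astrocyte medians of -5.71 and -1.61, and the part of those cells in them was not tested. Of 35 GAPs of the TBC domain family and its relatives 2 were higher (5.71%) and 4 lower (11.4%), beside 9.33% and 17.1% of all genes. Tbc1d8b was 2.58-fold (1.71 to 3.94), Tbc1d9b 2.11-fold (1.93 to 2.31) and Tbc1d16 1.92-fold lower (1.71 to 2.16), and Tbc1d7 1.96-fold higher (1.44 to 2.69).

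With TMM scaling the general Rab machinery gave no call. In the list of GDIs, escort proteins and prenylation enzymes 0 of 8 passed, beside 9.33% higher and 17.1% lower of all genes. With total reads 1 of 8 was higher and 0 lower, beside 31.5% and 9.41% of all genes. Gdi2, a widely expressed GDI named here after its values were seen, was at 126 CPM in the escalating library and 142 CPM in the nonescalating one (ratio 0.890, 0.823 to 0.963). Chm and Chml, the escort proteins that present new Rabs for prenylation, had ratios of 1.04 and 0.784. Among kinases and phosphatases 1 of 4 was lower, beside 17.1% of all genes. It was the phosphatase Ppm1m at 2.31-fold (1.45 to 3.75), on 30 and 53 reads. Lrrk2, the kinase that phosphorylates Rab8 and Rab10, had 179 and 176 CPM (ratio 1.01, 0.947 to 1.09).

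Beside each count of effectors stand the 9.33% higher and 17.1% lower of all measured genes. Effectors of the secretory Rabs had 3 higher and 3 lower of 21. Rph3al was 2.46-fold (1.32 to 4.85), Myo5c 1.84-fold (1.22 to 2.81) and Optn, which binds Rab8, 1.67-fold higher (1.09 to 2.63), and Exph5, which binds Rab27, was 2.05-fold lower (1.6 to 2.64). The Rab3 effectors of the synapse, named for their role after their values were seen, were not called: Rims1 had a ratio of 0.967 (0.855 to 1.09), Rims2 of 0.890 (0.822 to 0.964) and the rabphilin gene Rph3a of 0.685 (0.639 to 0.735), beside 1.65 for Rab3a itself. Effectors of endosomal and recycling Rabs had 1 higher and 1 lower of 25 and the highest median of the 8 lists, 0.21 above that of all genes; the Rab5 effector Appl2 was 2.09-fold lower (1.81 to 2.41) and Rabep2 2.02-fold higher (1.35 to 3.10). Late endosomal effectors had 0 higher and 2 lower of 20, Plin3 at 2.16-fold (1.30 to 3.67) and Plekhm2 at 1.53-fold (1.25 to 1.88). ER and Golgi effectors had 1 higher and 0 lower of 16, the Golgi stacking gene Gorasp1 at 1.87-fold (1.39 to 2.52).

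**Figure D4:**
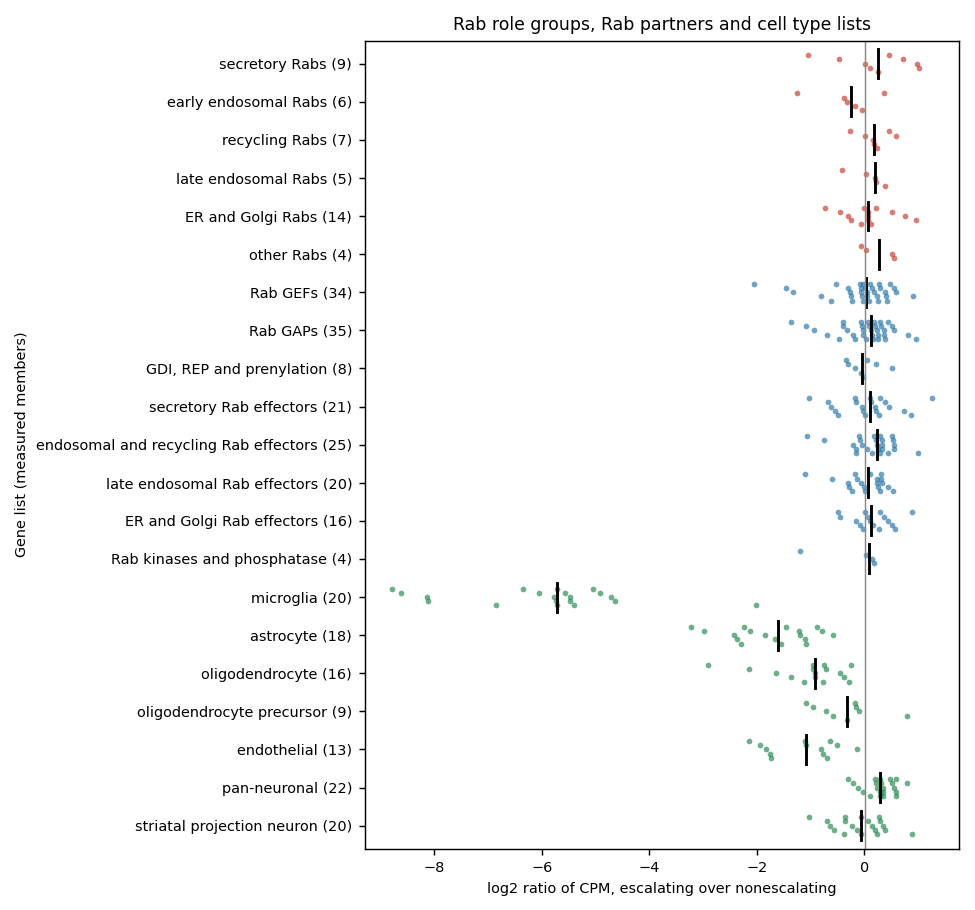
Log2 ratio of CPM, escalating over nonescalating, of every measured gene in the Rab role groups (red), the 8 lists of Rab regulators and effectors (blue) and the 7 cell type lists (green), with a black bar at each median and a grey line at the median of all genes. Rab and partner medians lie between -0.25 and 0.26, whereas the microglia median is at -5.71.

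Across the 45 measured Rab genes, log2 ratio and the GC content of the longest transcript had a Spearman correlation of 0.44, against 0.07 over 11298 measured genes with a GC value; these points share 2 libraries and genes are not replicates. The 5 higher members had 49.3% to 59.5% GC and the 3 lower ones 45.7% to 49.4%, while the 37 not called had 36.8% to 58.9%. With exon length the correlations were -0.23 for Rab genes and -0.07 for all genes. Members with no exon shared with another gene had a median log2 ratio of 0.14 (26 genes), and members sharing some exon sequence had -0.01 (19 genes), beside 0.00 and 0.03 over all genes of each kind. The parts of base composition and of shared exons in the ratios were not tested.

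**Figure D5:**
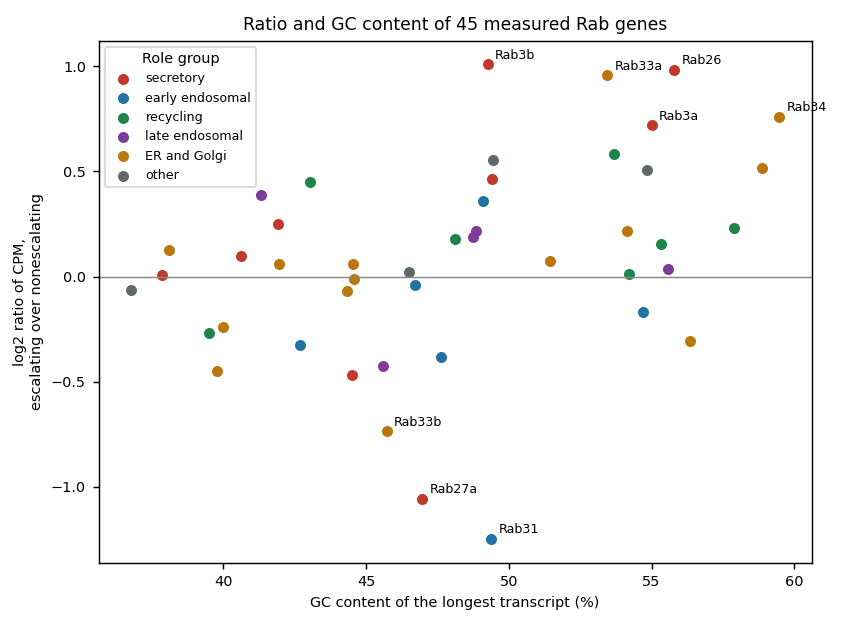
Log2 ratio of CPM, escalating over nonescalating, against the GC content in percent of the longest transcript for the 45 measured Rab genes, coloured by role group, with called genes named. Higher members lie at 49.3% GC or above and lower members at 49.4% or below, while the 37 members not called lie from 36.8% to 58.9%.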

How the data were processed

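Total RNA of dissected, homogenised dorsal striatum was purified with a Nanoprep kit from Agilent and made into 1 library per group, per the labels. The submitters' processing notes name STAR 2.0.0e, HTSeq and mm10; no source used here gives the annotation or the strand setting. What the authors deposited is a table of unnormalised read counts by symbol. Of all reads listed, 53.8% (escalating) and 55.3% (nonescalating) were assigned to a gene; the other reads, which name no gene, stayed out.

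Library sizes were scaled with TMM (edgeR 4.0.16, R 4.3.3), with factors of 1.13 (escalating) and 0.882 (nonescalating). Log2 ratios used a pseudocount of 0.5, genes needed 50 counts over both libraries, and printed folds have no pseudocount. A list is described by its counts and median; edgeR's and DESeq2's tests need replicates and were not run. Exon lengths, overlaps and GC content came from GENCODE M21 (GRCm38, the build of mm10), which matched all 58 Rab symbols, Rab1 through its RefSeq synonym of Rab1a. The calls were tested on simulated data. Intervals came from scipy 1.17.1 under Python 3.11.15, tables from pandas 2.3.3 with numpy 2.4.6, and figures from matplotlib 3.10.9.

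The members and lists were chosen with earlier results of these data known. By the naming rule, called Rab genes and the most abundant member of each group are given in full, and up to 4 called members with the largest ratio of each regulator or effector list are named. The values of 1 list member are not reported here. Alternatives changed the scaling (size factors of DESeq2 1.42.0, upper quartile, total reads, TMM without abundant classes), the filter, pseudocount or threshold, or left out genes with shared exons.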

Additional observations from a re-analysis of the deposited data

How the results depend on the processing

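Medians relative to all genes cannot change with the scaling. With genes that share exons left out, the relative median of all Rab genes was 0.14, against 0.06 in the main setting. That of ER and Golgi Rabs was 0.17, against 0.04, that of recycling Rabs 0.30, against 0.16, and that of secretory Rabs 0.18, against 0.23. With a minimum of 10 counts that of late endosomal Rabs was 0.02, against 0.17, and that of secretory Rabs 0.16. The number of Rab genes called higher, 5 in the report, was 15 with total assigned reads, 9 with upper-quartile factors, 1 at 2-fold (Rab3b) and 2 with genes that share exons left out (Rab33a and Rab34, with 26 Rab genes remaining). The number called lower, 3 in the report, was 6 with a minimum of 10 counts and 6 with a minimum of 1 count. These filters bring in Rab29, Rab39 and Rab3d as lower and Rab37 as higher. A minimum of 200 counts drops the calls of Rab34 and Rab27a. With genes that share exons left out, 1 was called lower (Rab31). With total reads Rab33b was not called. Over all genes, total reads gave 3850 higher and 1149 lower, and upper-quartile factors 1679 and 1747, against 1140 and 2091 in the report; 2-fold gave 246 and 1091. No paired analysis was possible because each group has 1 library. Depth limits the 8 members under 50 counts, and with 1 library per group the variation between animals is unknown.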
